A study of Homo sapiens with 4 samples.

Results

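The genes described here encode the core proteins of glypicans, syndecans and other proteoglycans of the cell surface and matrix. The list holds 10 genes: the glypicans GPC1, GPC4 and GPC6, the syndecans SDC1, SDC2 and SDC4, the transmembrane chondroitin sulfate proteoglycan CSPG4, serglycin (SRGN), biglycan (BGN) and decorin (DCN). They were measured in DAOY, an established human medulloblastoma cell line, on 4 whole-transcript arrays. Of the 18417 genes with a probe set that carries exactly 1 gene symbol, 9 are members of this list, each read by 1 probe set. SDC4 shares its only annotated probe set with a second symbol, so no value is given for it. The list was drawn up with the differences between these arrays known, so the differences of its members from the scrambled array are given as a description, with no test.

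All 4 samples were DAOY cells that had been exposed to a lentivirus carrying a short hairpin RNA and then kept in puromycin, which kills untransduced cells. In 3 of them the hairpin was directed at the zinc finger protein ZFX, an X-linked regulator of transcription (genotype ZFX KD; hairpins H2, H3 and H4, 1 array each), and in 1 it was a scrambled, non-targeting hairpin (SCR, genotype Ctrl). Virus was present for 16 to 24 hours, 48 hours of recovery followed, and RNA was taken about 48 hours after the cells were moved into 2 ug/mL puromycin. The labels name no repeat of any transduction, and every hairpin is compared with the same scrambled array, so the 3 differences of a gene share its error. The 3 hairpins are different reagents against 1 target; a mean over them is given with its SD (n = 3), which holds their differences and leaves out the error of the scrambled array.

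A proteoglycan is a core protein to which long sulfated sugar chains, the glycosaminoglycans, are attached. Glypicans are held in the outer leaflet of the plasma membrane by a lipid anchor and syndecans cross the membrane; both carry mainly heparan sulfate, which binds growth factors, chemokines and morphogens and presents them to their receptors. CSPG4, also called NG2, crosses the membrane and is known from pericytes, oligodendrocyte progenitors and several tumours. Serglycin packs proteases and cytokines in secretory granules and is best known from blood cells, and biglycan and decorin are small leucine-rich proteoglycans of the matrix that bind collagen and TGF-beta.

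The targeted gene was read first. ZFX had intensities of 744.9 (H2), 749.6 (H3) and 995.6 (H4) against 1430 for the scrambled hairpin, which leaves 52.1%, 52.4% and 69.6%. The H2 array stood furthest from the scrambled array over all probe sets (Pearson r = 0.992, against 0.995 for H4 and 0.996 for H3, across probe sets, which are not replicates). At a fold of 1.5, H2 was below the scrambled array at 5.61% of the 13813 genes that passed the intensity filter, H4 at 2.17% and H3 at 1.14%. The same fold above the scrambled array was reached by 0.992% with H2, 0.608% with H4 and 0.528% with H3. Mean differences that moved by over 1.5 times without H2 are therefore also given without it. Of 15 markers of medulloblastoma and cerebellar progenitors with a probe set, 13 passed the filter. VIM read at a mean log2 intensity of 13.72, ZIC2 at 10.21 and OTX2 at 8.98. MYCN (7.14), SYP (7.06) and ATOH1 (6.82) passed by less, whereas GLI1 (6.49) and NES (6.78) lay under the filter. The filter was set at the 25th percentile of the genes' mean log2 intensities.

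The promoters of the members that stood at least 1.5-fold from the scrambled array with at least 1 hairpin (5 members, and 8.81% of all genes kept) are shown, because they set the members with their largest difference on H2 beside the higher one, GPC6. Each run is the 250 bases before a RefSeq transcript start (GRCh38.p14), 5′ to 3′ on the gene's strand, with matches to the GC box (GGGCGG, or CCGCCC on the other strand), the TATA box (TATAAA, or TTTATA on the other strand) and AGGCCT, its own reverse complement and the core of the motif reported for ZFX, in capitals.
GPC4 (chrX:133415490-133415739, - strand): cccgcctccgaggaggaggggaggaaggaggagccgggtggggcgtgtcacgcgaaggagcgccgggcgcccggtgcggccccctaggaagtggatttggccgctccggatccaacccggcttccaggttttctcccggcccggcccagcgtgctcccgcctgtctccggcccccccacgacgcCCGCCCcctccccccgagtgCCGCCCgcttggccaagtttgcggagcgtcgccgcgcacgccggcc
BGN (chrX:153494730-153494979, + strand): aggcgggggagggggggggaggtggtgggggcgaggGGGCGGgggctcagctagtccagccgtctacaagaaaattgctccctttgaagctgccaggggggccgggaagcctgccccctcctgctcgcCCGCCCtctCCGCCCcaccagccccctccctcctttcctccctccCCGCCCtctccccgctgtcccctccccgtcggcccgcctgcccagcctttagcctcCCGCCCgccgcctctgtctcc
CSPG4 (chr15:75712849-75713098, - strand): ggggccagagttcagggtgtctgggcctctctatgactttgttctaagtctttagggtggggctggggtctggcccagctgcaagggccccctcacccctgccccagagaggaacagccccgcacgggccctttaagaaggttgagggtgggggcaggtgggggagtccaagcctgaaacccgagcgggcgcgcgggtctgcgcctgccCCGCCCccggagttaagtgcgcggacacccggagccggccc
GPC6 (chr13:93226557-93226806, + strand): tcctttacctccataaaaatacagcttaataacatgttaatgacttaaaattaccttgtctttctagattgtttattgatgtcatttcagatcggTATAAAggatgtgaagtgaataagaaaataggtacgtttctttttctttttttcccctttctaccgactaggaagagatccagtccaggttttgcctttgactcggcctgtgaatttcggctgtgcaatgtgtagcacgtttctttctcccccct
SRGN, the other member of this kind, had no entry. Of the 9 measured members, 6 had an entry, the others being SDC2, SRGN and DCN. The GPC4 and BGN windows end at the outer edge of the gene, while the starts used for CSPG4 and GPC6 lie 618 and 10278 bases inside it.

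The GPC6 window differed in base composition from the other 3. It was 37.6% G and C, against 76% for GPC4, 74% for BGN and 68.4% for CSPG4. Over 35116 windows of the same length the median was 58% and the quartiles 46.4% and 68%. The GC box occurred 5 times for BGN, 2 times for GPC4, 1 time for CSPG4 and 0 times for GPC6, and 42.6% of all windows held it at least once. GPC6 alone among these 4 held the TATA box letters (10.7% of all windows). Its composition was not shared by GPC1, the other member higher with every hairpin. The GPC1 window was 84% G and C and held the GC box 4 times. The 2 SDC1 windows were 66.4% and 75.2% G and C and held it 1 time each. The letters AGGCCT were in none of these 4 windows nor in those of GPC1 and SDC1, and in 9.20% of all windows. A match is a description of letters, not of a site in use.

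Serglycin was the member furthest below the scrambled array by its mean over the hairpins, and the difference was close to equal with each. SRGN (probe set 7927964) had intensities of 155.0 (H2), 166.8 (H3) and 157.4 (H4) against 322.5 for the scrambled hairpin. All 3 knockdown arrays were low and lay close to each other, at 48.1%, 51.7% and 48.8% of the scrambled value. Averaged over the hairpins SRGN differed by -1.01 ± 0.056 on the log2 scale (SD, n = 3), the 22nd lowest of 13813 genes. SRGN was the only member that all 3 hairpins placed 1.5-fold or more below the scrambled array, as they did 0.311% of the genes kept. None was placed that far above by all 3, where the share of the genes kept was 0.0507%. It stayed between -0.95 and -1.05 under the 8 alternatives to the scaling, the offset, the probe set rule and the choice of hairpins.

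GPC6 was the member furthest above. GPC6 (probe set 7969613) had intensities of 401.1 (H2), 407.6 (H3) and 380.6 (H4) against 271.0 for the scrambled hairpin. The 3 knockdown arrays were again close together and the scrambled array was the low one. These are 148.0%, 150.4% and 140.5% of the scrambled value, so the fold of 1.5 was reached with H3 alone, and narrowly. Averaged over the hairpins GPC6 differed by 0.55 ± 0.052 on the log2 scale (SD, n = 3), the 41st highest of the genes kept. SRGN and GPC6 had spans between hairpins of 0.11 and 0.099 on the log2 scale, where the median over all genes kept was 0.22.

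**Figure D1:**
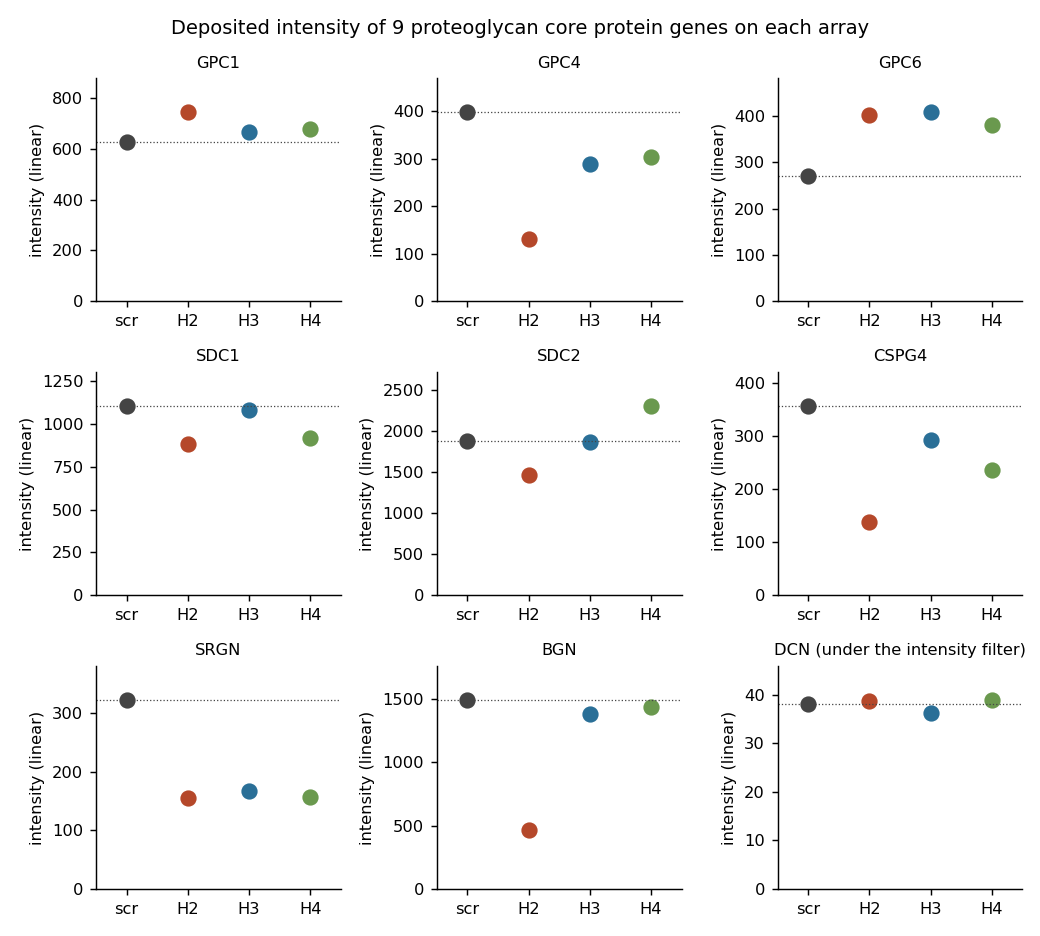
Deposited intensity (linear scale, axes from 0) of the 9 measured genes on the scrambled (scr), H2, H3 and H4 arrays, 1 point per array, with a dotted line at the scrambled value. For SRGN the 3 hairpin arrays lie together below the line, for GPC6 together above it, and for GPC4, CSPG4 and BGN the H2 point lies apart from the other arrays.

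The other glypicans went different ways. GPC4 (probe set 8175217) had intensities of 131.4 (H2), 287.8 (H3) and 302.3 (H4) against 396.9 for the scrambled hairpin. It was low on every knockdown array, but H2 was at 33.1% of the scrambled value and H3 and H4 at 72.5% and 76.2%. GPC4 averaged -0.82 ± 0.67 on the log2 scale (SD, n = 3), and -0.43 without H2. GPC1 (probe set 8049670), a glypican known from neurons and many carcinomas, had intensities of 742.8 (H2), 667.2 (H3) and 677.3 (H4) against 626.0 for the scrambled hairpin. It was higher on each knockdown array by a small margin, on average by 0.15 ± 0.084 on the log2 scale (SD, n = 3) and at most 118.7% of the scrambled value. Within 1 family, GPC4 was thus lower and GPC1 and GPC6 were higher with every hairpin, and each kept that side under each scaling tried.

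Biglycan and CSPG4, like GPC4, were far lower on the H2 array than on the others. BGN (probe set 8170648) had intensities of 465.4 (H2), 1383 (H3) and 1436 (H4) against 1491 for the scrambled hairpin. H2 was at 31.2% of the scrambled value, the 20th lowest difference of the genes kept on that array, while H3 and H4 were at 92.8% and 96.3%. The average of -0.61 ± 0.92 on the log2 scale (SD, n = 3) therefore rested on H2, and was -0.08 without it. CSPG4 (probe set 7990545) had intensities of 137.4 (H2), 291.5 (H3) and 235.5 (H4) against 356.1 for the scrambled hairpin. It was low on all 3 knockdown arrays, in the order H2, H4, H3, at 38.6%, 66.1% and 81.9% of the scrambled value. CSPG4 averaged -0.75 ± 0.56 on the log2 scale (SD, n = 3), and -0.44 without H2. On the H4 array CSPG4 was 1.51-fold below the scrambled array as deposited and 1.46- to 1.48-fold below under each other scaling and with 16 added to the intensities, so that its place past 1.5-fold was not kept there.

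**Figure D2:**
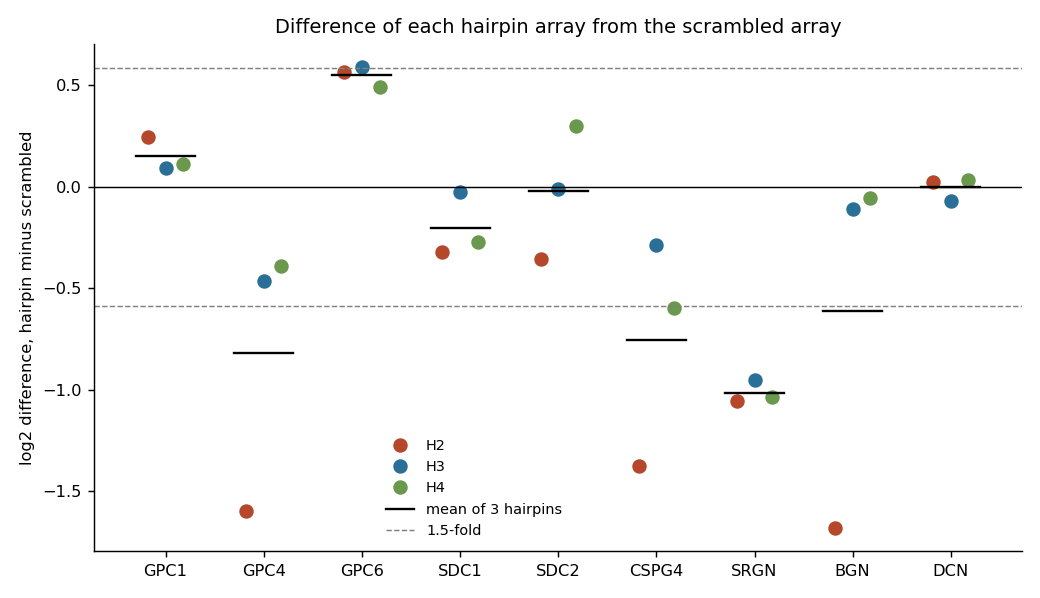
Log2 difference of each hairpin array from the scrambled array for the 9 measured genes (coloured points, 1 per hairpin), with the mean of the 3 hairpins (black bar) and lines at 1.5-fold. SRGN and GPC6 have tightly grouped points at means of -1.01 and 0.55, while BGN, GPC4 and CSPG4 have H2 points between -1.37 and -1.68 and their other points nearer to 0.

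The syndecans showed smaller differences. SDC1 (probe set 8050557), the syndecan of epithelia and plasma cells, had intensities of 883.8 (H2), 1083 (H3) and 915.0 (H4) against 1103 for the scrambled hairpin. H2 and H4 were lower, at 80.1% and 82.9%, and H3 stood at 98.2%, a difference whose sign turned when each array was centred on its median. SDC1 averaged -0.21 ± 0.16 on the log2 scale (SD, n = 3). SDC2 (probe set 8147461), a syndecan of fibroblasts and mesenchymal cells, had intensities of 1466 (H2), 1864 (H3) and 2307 (H4) against 1877 for the scrambled hairpin. Its arrays lay on both sides of the scrambled one, with H2 at 78.1%, H3 at 99.3% and H4 at 122.9%. The hairpins thus cancelled in the mean of -0.02 ± 0.33 (SD, n = 3), which was 0.14 without H2.

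Decorin was near the floor of the arrays. DCN (probe set 7965410) had intensities of 38.7 (H2), 36.2 (H3) and 38.9 (H4) against 38.0 for the scrambled hairpin and only 0.57% of the genes with a probe set had a lower mean. It failed the intensity filter, and its differences of 0.02, -0.07 and 0.03 say nothing on the transcript. The other 8 measured members passed the filter.

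Counted over the 9 measured genes, 5 (SRGN, GPC4, CSPG4, BGN and SDC1) were lower with every hairpin and 2 (GPC1 and GPC6) were higher with every hairpin. Over all genes kept the shares were 30.6% and 16.9%. With centring of each array these shares became 23.3% and 23.6%, and the members' counts 4 and 2, SDC1 being the gene that left. At 1.5-fold, 4 members (BGN, GPC4, CSPG4 and SRGN) were lower with H2, 1 (SRGN) with H3 and 2 (SRGN and CSPG4) with H4, and only GPC6 was higher, with H3. The list was chosen on this contrast, so nothing is read from these counts. The median mean difference over the 9 genes was -0.21 and over all genes kept -0.03.

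BGN, GPC4 and CSPG4 were each at least 1.5-fold below every other array on H2, including the other hairpins. A position of that kind was held by 1.81% of the genes kept, and for H3 and H4 by 0.116% and 0.326%, with 0 members. Against the mean of H3 and H4, the H2 log2 value differed by -1.60 for BGN, -1.17 for GPC4 and -0.93 for CSPG4, and by -0.06 for SRGN. With 1 array per hairpin, effects of the ZFX knockdown, of the H2 sequence, of its transduction and of that array cannot be told apart.

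**Figure D3:**
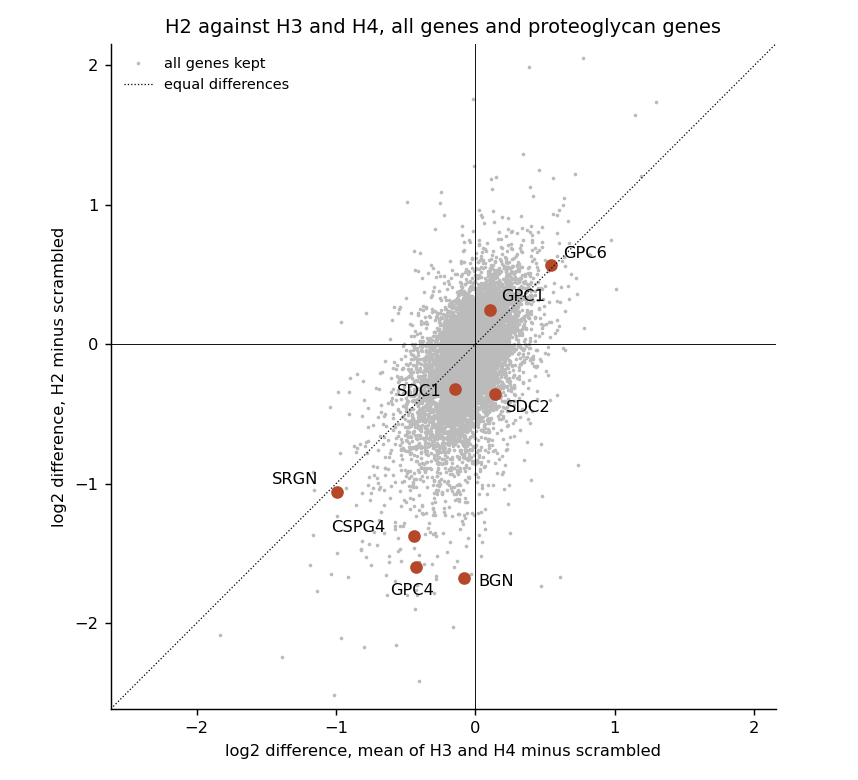
Log2 difference from the scrambled array with H2 (vertical axis) against the mean of H3 and H4 (horizontal axis) for the 13813 genes kept (grey) and the 8 members among them (red), with a dotted line where both are equal; both axes share the scrambled array. SRGN and GPC6 lie at the dotted line, and GPC4, CSPG4 and BGN lie well below it.

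The genes with the pattern most like that of a member were sought over the 3 differences (4 arrays, 13812 other genes), by Euclidean distance on the log2 scale. SRGN was nearest to CTSS, the lysosomal protease cathepsin S (distance 0.19; average difference -1.07), and to KYNU, kynureninase (0.26). GPC6 was nearest to NRROS, a regulator of reactive oxygen and latent TGF-beta (0.05), and MED19, a subunit of the Mediator complex (0.07). CSPG4 was nearest to FGF2, a heparan sulfate binding growth factor (0.14; differences -1.28, -0.37 and -0.66), and RAB27B, a GTPase of vesicle secretion (0.16). GPC4 was nearest to TNFSF10, the death ligand TRAIL (0.14), and AOAH, an enzyme that deacylates lipopolysaccharide (0.15). BGN was nearest to B4GALT1, a galactosyltransferase (0.23), and ITGA11, a collagen-binding integrin chain (0.24). With 3 numbers per gene, such distances describe these arrays only.

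Neighbouring genes on the chromosome were read for comparison. A neighbour here is the nearest gene on a side that has a probe set of exactly 1 symbol, so other genes can lie between. GPC4 and GPC3 lie next to each other on the X chromosome, and GPC3 differed by 0.10, 0.19 and -0.09 with H2, H3 and H4 where GPC4 differed by -1.59, -0.46 and -0.39. Among genes with such a probe set, GPC6 lies between GPC5, under the intensity filter, and TGDS, a nucleotide sugar dehydratase. TGDS differed by 0.49, 0.14 and 0.35. SRGN lies between KIFBP, which binds kinesins, at -0.41, -0.45 and -0.47, and VPS26A, a retromer subunit, at -0.62, -0.05 and -0.10. Both were nearer to the scrambled array than SRGN with every hairpin. Next to BGN, TREX2 differed by -0.22, -0.33 and -0.24, and next to CSPG4, SNX33 by -0.20, 0.24 and -0.04. LUM, a small leucine-rich proteoglycan like its neighbour DCN, differed by 0.38, -0.70 and 0.18.

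Proteoglycan genes outside the list and the enzymes that build, sulfate and break down their chains were read as 11 lists. The lists hold 152 genes, of which 121 were kept. They too were chosen with earlier results of these data known, so nothing is concluded from their counts and p-values. In limma's moderated test of the 3 knockdown arrays against the scrambled array, 0 of these 121 genes and 0 of all 13813 (0%) were called at 0.05 after Benjamini-Hochberg adjustment (the lowest value was an adjusted p of 0.9998). At an unadjusted p under 0.05 stood 8 of the 121 genes and 446 of all genes (3.23%). By side, 46 of the 121 (38.0%) were lower and 17 (14.0%) higher with every hairpin, where all genes gave 30.6% and 16.9%. With each array centred on its median these were 32 (26.4%) and 21 (17.4%), where all genes gave 23.3% and 23.6%. The counts of the lists thus moved with the scaling, as did those of all genes. The median over the lists was -0.07. On all 3 knockdown arrays 1 gene, MMP7, was 1.5-fold or more from the scrambled array, on the lower side. Of all genes kept, 0.311% were that far below with every hairpin and 0.0507% that far above.

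Among the other core proteins, betaglycan was furthest below the scrambled array by its mean over the hairpins. Of 7 further heparan sulfate core proteins kept, 3 were lower and 1 was higher with every hairpin. TGFBR3, betaglycan, a co-receptor of TGF-beta that carries heparan sulfate, had intensities of 373.0 (H2), 680.4 (H3) and 624.6 (H4) against 875.2 for the scrambled hairpin, and averaged -0.69 on the log2 scale, or -0.42 without H2. Of the basement membrane proteins, HSPG2 (perlecan) differed by -0.60, -0.01 and -0.55 with H2, H3 and H4, so that H3 stood near the scrambled array. AGRN (agrin) differed by -0.58, -0.08 and -0.13, and its mean of -0.26 ± 0.27 (SD, n = 3) was -0.11 without H2. COL18A1, a collagen that carries heparan sulfate, averaged 0.14 ± 0.071 (SD, n = 3). Of 6 further chondroitin and keratan sulfate core proteins kept, 4 were lower and 2 higher, or 1 and 2 with each array centred. VCAN, the large matrix proteoglycan versican, differed by -0.55, -0.41 and -0.22, and SPOCK1, testican, by -0.68, -0.37 and -0.04, with a mean of -0.36, or -0.20 without H2. NCAN, neurocan of the nervous system, differed by 0.32, 0.22 and 0.27. Of 7 further small leucine-rich proteoglycans kept, 3 were lower and 2 higher (1 and 2 with each array centred), with mean differences from -0.10 (PODN) to 0.20 (PRELP). LUM, lumican, was furthest from the scrambled array on H3 and on the other side of it with H2 and H4.

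Among the enzymes that make heparan sulfate, EXT2 and GLCE were lower with every hairpin at nearly the same size. EXT2, a subunit of the chain polymerase, had intensities of 2515 (H2), 2888 (H3) and 2685 (H4) against 3907 for the scrambled hairpin. The 3 knockdown arrays were all low and averaged -0.54 ± 0.10 (SD, n = 3), or 68.9% of the scrambled level, with an unadjusted p of 0.008 and an adjusted p of 0.9998 in limma. GLCE, the epimerase that turns glucuronic into iduronic acid, had intensities of 1317 (H2), 1352 (H3) and 1463 (H4) against 1862 for the scrambled hairpin (mean -0.44 ± 0.079). NDST1, which starts sulfation, differed by -0.66, -0.21 and -0.37. Of the 5 polymerase genes 2 were lower and 1 was higher with every hairpin, with a median of -0.05, and of 14 modification genes 5 were lower and 3 higher, with a median of -0.07. The median of all genes kept was -0.03. Over both lists together the median of -0.05 was 0.004 without H2 and -0.13 without H4.

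The other steps gave the following. For the linkage region and its sugar donors, 3 of 11 were lower and 1 higher (median -0.08), with SLC35D1, a transporter of nucleotide sugars, at -0.97, -0.26 and -0.33 (mean -0.52, or -0.30 without H2). For chondroitin and dermatan sulfate synthesis, 6 of 14 were lower and 0 higher (median -0.13), led by DSE, dermatan sulfate epimerase, at -0.94, -0.55 and -0.22, and CHST11, a chondroitin sulfotransferase, at -0.75, -0.34 and -0.10 (mean -0.40, or -0.22 without H2). With each array centred the counts were 2 and 2 for the linkage region and 5 and 1 for chondroitin and dermatan sulfate synthesis. Biglycan and decorin are among the carriers of dermatan sulfate. For sulfate supply, 1 of 7 was lower and 0 higher (median -0.05). For chain breakdown, 6 of 14 were lower and 3 higher (median -0.04), or 3 and 3 with each array centred, with HGSNAT, a lysosomal acetyltransferase of heparan sulfate breakdown, at -0.60, -0.47 and -0.51 and SUMF1, which activates sulfatases, at 0.36, 0.20 and 0.30.

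Of the genes of shedding, cleavage and trafficking, 7 of 15 were lower and 1 higher (median -0.18). MMP7, a protease that can shed syndecans, had intensities of 126.2 (H2), 180.3 (H3) and 209.8 (H4) against 321.8 for the scrambled hairpin. ADAMTS9, a matrix protease, differed by -0.52, -0.71 and -0.33, MMP14, a membrane-bound matrix protease, by -0.98, -0.20 and -0.19 (mean -0.46, or -0.20 without H2) and ADAMTS5, an aggrecanase, by 0.59, 0.28 and 0.20. Among the ligands and receptors that use heparan sulfate, 6 of 21 were lower and 3 higher (median -0.07). The chemokine CXCL12 had intensities of 222.5 (H2), 371.8 (H3) and 648.6 (H4) against 958.8 for the scrambled hairpin, so that all knockdown arrays were low but spread widely. FGF2 had intensities of 432.5 (H2), 812.2 (H3) and 666.2 (H4) against 1050 for the scrambled hairpin, in the same order as CSPG4. TGFB2, a ligand of betaglycan, differed by -1.05, -0.46 and -0.85, whereas FGF5 differed by 0.40, 1.25 and 0.76.

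**Figure D4:**
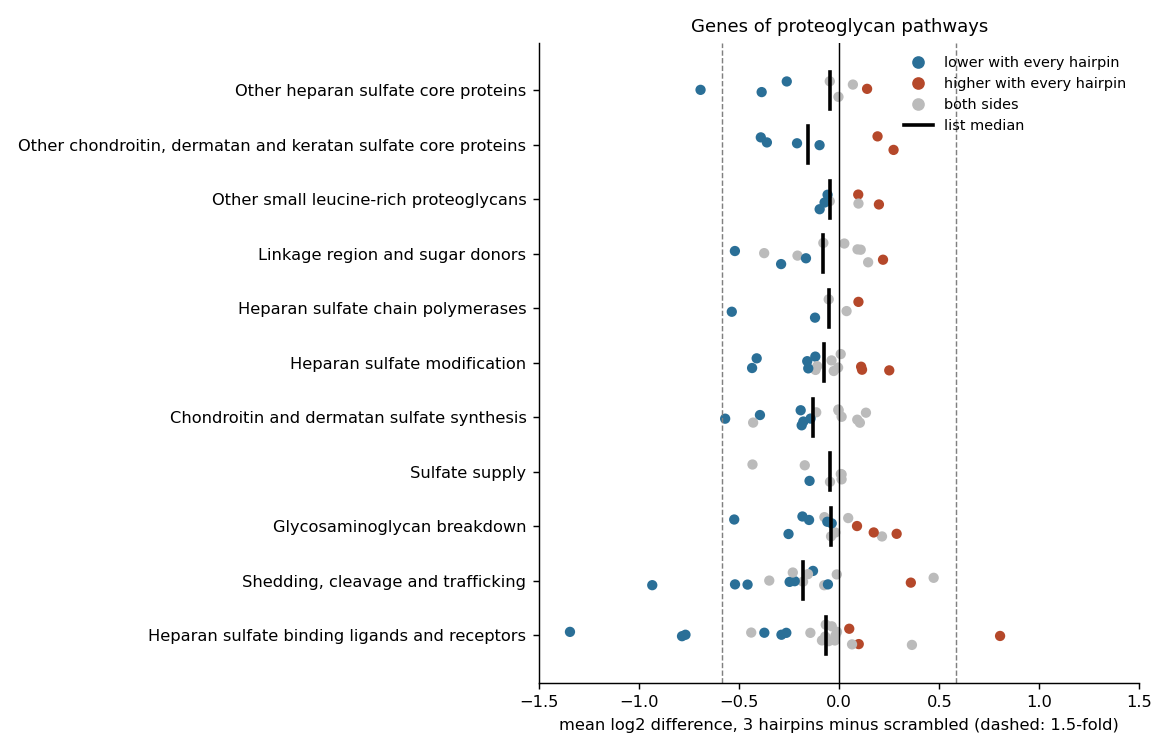
Mean log2 difference over 3 hairpins from the scrambled array for each kept gene of the 11 lists (points; blue, lower with every hairpin; red, higher with every hairpin; grey, both sides), with list medians (black bars) and dashed lines at 1.5-fold; vertical placement within a list is arbitrary. The medians lie between -0.18 and -0.04, and CXCL12, at a mean of -1.35, and FGF5, at 0.80, are the outermost points.

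Markers of cell types in which members are known were read on the same arrays. Over all genes kept, 30.6% were lower and 16.9% higher with every hairpin, or 23.3% and 23.6% with each array centred. The marker counts are those of the deposited scaling, over the genes kept. Summed intensities are over all markers of a list with a probe set, also those under the filter. Of 11 haematopoietic markers with a probe set, 7 were kept, 3 of them lower and 0 higher with every hairpin. The summed intensity of the 11 was 3762 (H2), 5898 (H3) and 4792 (H4) against 5875 for the scrambled hairpin. CD68, the largest term of that sum, read 3253 with H3 and 2570 with the scrambled hairpin. LCP1, CSF1R and SPI1 were the 3 lower genes, LCP1 by most, with H2 at 35.5% of the scrambled value, H3 at 66.2% and H4 at 38.1%. LYZ, under the filter, had log2 differences of -0.93, -0.60 and -0.73. PTPRC, which defines blood cells (CD45), read 41.9 to 43.0 on the 4 arrays and lay under the filter with LYZ, ITGAM and CD3E. Of 5 mast cell markers KIT, CPA3, FCER1A and HDC lay under the filter, and the list summed to 461.9 to 507.0. SRGN was lower with every hairpin, as 3 of the 7 kept haematopoietic markers were. CD68, CD14, LAPTM5 and TYROBP were not. LAPTM5 stood at 33.1% (H2), 77.2% (H3) and 105.0% (H4) of the scrambled value, and CD68 at 72.1%, 126.5% and 88.4%. TYROBP stood at 98.9%, 102.4% and 91.9%, and CD14 at 102.3%, 98.1% and 101.0%. The part of these markers in the SRGN value was not tested. For pericytes and oligodendrocyte progenitors, 6 of 9 were kept, 1 lower and 2 higher, with sums of 3482 on the scrambled array and 3646 to 4087 with the hairpins, and OLIG2 under the filter. The largest term was ANPEP, at 2423 (H2), 2238 (H3) and 2117 (H4) against 1615. MCAM, a marker of pericytes, read 295.5 (H2), 772.9 (H3) and 1058 (H4) against 926.0, or 31.9% of the scrambled value on H2, where CSPG4 stood at 38.6%, and its part in the CSPG4 value was not tested. Fibroblast markers, all 8 kept, with 1 lower and 2 higher, summed to 8884 (H2), 13923 (H3) and 12936 (H4) against 14042. This sum, like BGN, was lowest on H2. On H2, COL1A1, COL1A2, PDGFRB, FAP and PDPN were at least 1.5-fold lower, at 55.8%, 65.4%, 48.6%, 48.3% and 44.6% of the scrambled value. COL1A1, COL1A2 and PDGFRB stood at 95.4%, 103.3% and 91.5% on H3 and at 107.0%, 102.1% and 145.5% on H4. FAP was also lower on H3 and H4, at 39.8% and 66.0%. PDPN was at 103.1% on H3 and 46.2% on H4, where BGN was at 96.3%. COL3A1 and PDGFRA were higher on H2, at 132.2% and 142.8%, and THY1 was at 72.6%. The part of these markers in the BGN value was not tested. Of 8 endothelial markers 4 were kept, 2 lower and 0 higher (2440 on the scrambled array and 1342 to 1912 with the hairpins), with PECAM1, CDH5 and VWF under the filter. Of 8 epithelial markers 6 were kept, 5 lower and 0 higher (11830, and 9264 to 9979), with EPCAM and CDH1 under the filter. Of 15 markers of medulloblastoma and cerebellar progenitors 13 were kept, 5 lower and 4 higher (19707, and 19660 to 19886). A lower share of expressing cells and less RNA per cell cannot be told apart in any of these values.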

How the data were processed

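Each of 4 samples of DAOY RNA (250 ng, biotin label) was hybridised to 1 array. The authors' deposited values are intensities, 1 for every probe set of an array, normalized by them with RMA, per the submitters' processing notes. Which version and settings they used is not given in the sources used here. RMA gives log2 values, but the deposited intensities are linear, so log2 was taken first. RMA is meant to place all arrays on 1 distribution, which would hide a change in total RNA. The deposited probe set values still differed in level between arrays. Of the genes kept, 30.6% were lower and 16.9% higher with every hairpin as deposited, and 23.3% and 23.6% after centring each array. No detection call, scan date or slide was used, so batches were not examined, and the number of arrays limits the precision.

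Of 33297 probe sets, 19460 carry 1 symbol in the platform annotation and 1754 carry several; 12083 are not listed with a gene. By gene number, 19429 matched RefSeq. The probe set with the highest mean was kept per gene. Genes whose mean log2 intensity reached the 25th percentile (6.78) were tested with limma 3.58.1 (R 4.3.3; lmFit, then eBayes with a trend), 3 hairpins against 1 scrambled array, which leaves 2 residual degrees of freedom, and Benjamini-Hochberg adjustment. The test was run on simulated data first. Single hairpins have no test, and a fold of 1.5 was used. Nothing says that the samples came from separate cultures. The 2 residual degrees of freedom come from the 3 hairpin arrays. The p-values therefore rest on the spread between hairpins and hold nothing on the spread of the scrambled array. Tables and figures used Python 3.11.15, pandas 2.3.3 and matplotlib 3.10.9.

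The members and lists were chosen with earlier results of these data known. Named genes are the members, ZFX, up to 4 genes of each list with the largest mean difference on the same side with every hairpin, the neighbours of members on the chromosome, and the 2 genes of most like pattern for each member past 1.5-fold; marker genes are named to check cell types. Alternatives covered scaling, an added 16, the probe set rule, the intensity filter, the trend and each hairpin left out.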

Additional observations from a re-analysis of the deposited data

How the results depend on the processing

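Each member's mean difference kept its sign under every alternative tried, except SDC2 and DCN, whose values near 0 went from -0.18 to 0.14 and from -0.02 to 0.03. The counts at 1.5-fold moved where a member sits at that fold. GPC6 was counted as higher with H2 (1 member) after centring each array or quantile normalization, and no longer with H3 (0) once 16 was added. CSPG4 left the lower count with H4 (1 member) under centring, quantile normalization, cyclic loess and the added 16. With the intensity filter raised to the 50th percentile, 28 of all genes were 1.5-fold lower with every hairpin (43 in the filter used), and 5 pathway genes were higher with every hairpin (17), since fewer genes were counted. Without 1 hairpin fewer arrays had to pass: 58 to 127 genes were 1.5-fold lower and 12 to 24 higher, 1 to 2 members were 1.5-fold lower (CSPG4 joining SRGN without H3), and 20 to 29 pathway genes were higher. Limma called 0 genes under every alternative, with 248 to 691 at an unadjusted p under 0.05. No fit without the scrambled array was possible, as it is the only control. No paired analysis was possible, because there is only 1 scrambled array and the labels pair no hairpin array with it.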

Other observations

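Some genes of the lists stood out on a single array or under the intensity filter, and were chosen after their values were seen. FGF1, a heparan sulfate binding growth factor under the filter by its mean, had intensities of 70.5 (H2), 74.2 (H3) and 64.2 (H4) against 142.5 for the scrambled hairpin, and it has no limma value here. SLC26A2, the sulfate transporter that supplies chain sulfation, was low on H3 alone, at 493.6, against 1058 with H2, 1207 with H4 and 1158 on the scrambled array. LUM was lowest on H3 as well, at 114.4, against 186.5 on the scrambled array, 242.7 with H2 and 211.6 with H4. SULF2, which removes sulfate from heparan sulfate at the cell surface, had intensities of 308.4 (H2), 351.6 (H3) and 672.5 (H4) against 429.2 for the scrambled hairpin. The syndecan SDC2 had the same order of hairpins as SULF2, lowest with H2 and highest with H4. Each of these values comes from 1 array per hairpin and has no replicate.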
